A study of Mus musculus with 8 samples.

Results

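The mouse gene *Grip1* carried 72 of the 53761 H3K9me3 peaks of this colon data set, and its H3K9me3 was higher in *Smarcad1*-KO than in WT crypts over most of the gene body. Its peaks were chosen by the gene name that the table gives each peak, and so every peak whose closest gene within 5 kb was *Grip1* (ENSMUSG00000034813) is included. The peaks were numbered 1 to 72 here in the direction of transcription. The gene lies on the plus strand at chr10:119453830-120087261 (GRCm38, GENCODE vM21) and is 633 kb long. Peaks had been called once, on the ChIP libraries of both genotypes together, so a stretch that was enriched in KO alone could also become a peak. The number of changed peaks is therefore given as a description of the gene, together with the share of all peaks that changed.

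H3K9me3 was measured by ChIP-seq in whole colon crypt isolates of C57BL/6 mice, with the antibody ab8898. The KO group held 3 libraries from mice in which *Vil-cre* deletes floxed *Smarcad1*, and the WT group held 3 libraries from wildtype mice. *Vil-cre* is driven by the villin promoter and acts in the intestinal epithelium, so that any other cell in a crypt isolate keeps *Smarcad1*. Each genotype also had 1 library of input DNA, which is chromatin set aside before immunoprecipitation. Cre status of the WT mice, ages and whether a library came from 1 animal are not given in the sources used here, and p-values measure the spread between these libraries. *Smarcad1* itself has no peak in the table, so the deletion could not be checked in these values, and *Vil1* has 1 peak.

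GRIP1 is a scaffold protein built of PDZ domains, protein modules that hold the tails of membrane proteins. It is best known from neurons, where it binds AMPA receptor subunits and links cargo to kinesin motors. In epithelia it is needed for the cell surface placement of the FRAS1 and FREM proteins, which anchor epithelium to the matrix below it. H3K9me3 is a histone mark of heterochromatin and is bound by HP1 proteins. It is typically found over repeats and silent genes. SMARCAD1 is a chromatin remodeling ATPase that has been linked to the upkeep of heterochromatin.

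*Grip1* has 3 transcription start sites in the set of mouse promoters used here (GRCm38.p6), at positions 119454034, 119819389 and 119992922. At each of them a RefSeq or GENCODE exon begins further upstream, so CpG windows and distances refer to the listed positions only. They divide the gene into a first stretch from the first to the second start, a second stretch up to the third start, and, last, the third stretch up to the gene end. A CpG is a cytosine followed by a guanine, the main site of DNA methylation in mammals. In the 300 bases around each start, 250 before it and 50 after it, the first start had 38 CpGs, the second start 7 and the third start 1. The median over the 32851 promoters of that set was 7, with quartiles of 3 and 20. Of these promoters, 95.0% had fewer CpGs than the first start, 47.9% fewer than the second start and 5.43% fewer than the third start. The CpG-rich first start had no peak. The nearest peak began 8817 bases after it. The second start lay inside peak 38, and the third start lay 29 bases before peak 63.

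The following sequences are shown because the 3 starts differed in both CpG content and H3K9me3. Each is the 300 bases of the plus strand, 5′ to 3′, just before the most upstream *Grip1* exon that RefSeq or GENCODE annotates at that start, and capitals mark CpGs. Start 1 is chr10:119452938-119453237, start 2 is chr10:119818318-119818617 and start 3 is chr10:119992420-119992719. Start 2 is inside peak 38, and the other sequences are outside any peak.
Start 1: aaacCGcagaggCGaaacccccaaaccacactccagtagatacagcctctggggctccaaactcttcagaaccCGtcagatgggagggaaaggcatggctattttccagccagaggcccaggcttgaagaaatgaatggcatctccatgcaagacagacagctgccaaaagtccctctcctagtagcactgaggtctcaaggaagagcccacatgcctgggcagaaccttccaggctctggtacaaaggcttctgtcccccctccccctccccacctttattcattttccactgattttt
Start 2: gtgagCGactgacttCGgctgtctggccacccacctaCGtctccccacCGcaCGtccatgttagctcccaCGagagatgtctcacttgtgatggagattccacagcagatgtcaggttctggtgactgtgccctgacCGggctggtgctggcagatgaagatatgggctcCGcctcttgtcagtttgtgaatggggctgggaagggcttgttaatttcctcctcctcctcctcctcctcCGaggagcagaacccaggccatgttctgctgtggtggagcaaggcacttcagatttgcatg
Start 3: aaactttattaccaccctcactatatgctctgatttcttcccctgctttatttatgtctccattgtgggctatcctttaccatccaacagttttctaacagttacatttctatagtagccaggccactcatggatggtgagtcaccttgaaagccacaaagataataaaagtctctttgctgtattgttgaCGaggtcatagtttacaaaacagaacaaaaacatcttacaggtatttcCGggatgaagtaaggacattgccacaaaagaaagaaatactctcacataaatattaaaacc
In these upstream windows the CpG counts were 3, 9 and 2. The 38 CpGs counted around the first start lie downstream of its window, within the exon.

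Further sequences show the middle of the peak with the largest increase (peak 17, chr10:119687901-119688100) and the middle of the widest peak (peak 11, chr10:119645976-119646175). Both are intronic, 200 bases long and on the plus strand, with CpGs in capitals.
Peak 17: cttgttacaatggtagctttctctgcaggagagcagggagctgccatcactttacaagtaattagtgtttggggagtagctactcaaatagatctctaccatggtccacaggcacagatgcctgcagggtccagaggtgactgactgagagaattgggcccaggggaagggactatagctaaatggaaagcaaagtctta
Peak 11: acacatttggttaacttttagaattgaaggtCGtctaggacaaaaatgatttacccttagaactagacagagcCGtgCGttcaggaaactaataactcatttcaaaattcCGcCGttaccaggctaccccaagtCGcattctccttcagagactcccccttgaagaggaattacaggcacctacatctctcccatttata
Peak 17 had 0 CpGs in this window and peak 11 had 6, and no base of either window is masked as a repeat.

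Such unique sequence was common in the *Grip1* peaks. The median peak had 16.4% of its bases soft-masked as repeats in the reference, against 37.1% over the 2849 other peaks on chromosome 10, and 1 of the 72 peaks was above that median. The *Grip1* peaks held a median of 13.7 CpGs per kb, against 6.67 in the other chromosome 10 peaks, and 69 of 72 were above it. GC content differed less, with a median of 43.8% against 41.8%. The CpG density was largely that of the gene itself. The gene body held 13.4 CpGs per kb inside its peaks and 11.2 outside them, and 17.3% and 26.6% of its bases were masked. These values describe 1 locus and were not tested.

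The peaks of *Grip1* covered 430 kb or 67.8% of the gene. Their width ranged from 750 to 42750 bp (median 3675 bp, against 1050 bp for all peaks), and 10 were at least 10 kb wide. Gaps between them had a median of 1200 bp, and 5 peaks touched the next one. Peak 1 began 9.02 kb after the gene start. The widest gap, 24.4 kb, lay between peaks 65 and 66. Of the 72 peaks, 71 were entirely inside the gene. Peak 72 was the exception, with 4.91 kb of its 16.4 kb in *Grip1* and 15.1 kb in *Helb*, a DNA helicase gene on the opposite strand that overlaps the *Grip1* end. An annotated *Grip1* exon overlapped 11 peaks, and the other 61 were intronic with respect to *Grip1*.

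Levels are given as the deposited log2 values, which are log2 read counts per peak matched to one distribution across the 6 ChIP libraries. For sums and for comparisons of peaks of different width they were converted back to matched reads per kb. Summed over the 72 peaks, H3K9me3 was 13.0, 12.1 and 13.1 matched reads per kb in WT replicates 1, 2 and 3, and 23.7, 25.5 and 23.0 in KO replicates 1, 2 and 3. All 3 KO libraries were above all 3 WT libraries. The means were 12.7 ± 0.561 in WT and 24.1 ± 1.31 in KO (SD, n = 3 each), a ratio of 1.89. The share of all peak signal that fell on *Grip1* was 0.415% ± 0.0183 in WT and 0.785% ± 0.0427 in KO (SD, n = 3 each). Because all peaks were matched to one distribution, over which the median log2 fold change was 0.0023, these are changes relative to the other peaks. In crypt isolates, more cells with the mark and more of the mark per cell cannot be told apart.

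Of the 72 peaks, 63 increased in KO at an adjusted p under 0.05 (limma over all 53761 peaks, two-sided, Benjamini-Hochberg). None decreased, also at an unadjusted p under 0.05, where 68 peaks were higher in KO and 0 lower. Over all peaks, 0.796% increased and 0.863% decreased. At an unadjusted p under 0.05, 2432 of the 53761 peaks were higher in KO and 3256 lower. The 67 *Grip1* peaks where every KO value exceeded every WT value compare with 7.2% of all peaks, and 70 of the 72 fold changes were above 0. The median log2 fold change was 1.35, with a range of -0.24 to 2.48. Because KO reads helped to define the peaks, these counts describe the locus and are not read as support for it. *Grip1* held 0.134% of all peaks and 14.7% of the 428 increased ones. A variance prior that ignores the mean level left 23 of the 63 calls, and 112 increased peaks over the whole table. Under it, 12 of the 26 peaks named below lost their call. They were peaks 1, 4, 5, 6, 11, 13, 44, 50, 51, 52, 62 and 72.

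The increased peaks formed 1 long run. Peaks 1 to 59, which span 497 kb from chr10:119462851 to chr10:119959500, all passed the test, as did peaks 61, 62, 71 and 72. The 9 peaks that did not pass were peak 60 and peaks 63 to 70. The last 8 of these follow each other over 74.6 kb, beginning 29 bases after the third start. In the first stretch 38 of 38 peaks increased, with a median log2 fold change of 1.49. In the second stretch 23 of 24 did, with a median of 1.36. In the third stretch it was 2 of 10, with a median of 0.63. There, 8 of the 10 fold changes were above 0, and 7 peaks were higher in KO at an unadjusted p under 0.05 (limma). The median peak of this stretch was 1575 bp wide, against 3675 bp over the gene. Elsewhere in the gene, peaks 31 and 34 passed at widths of 1200 and 1350 bp, and peak 60 did not at 1500 bp. Whether fewer reads or smaller changes lie behind the missed calls was not tested.

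**Figure D1:**
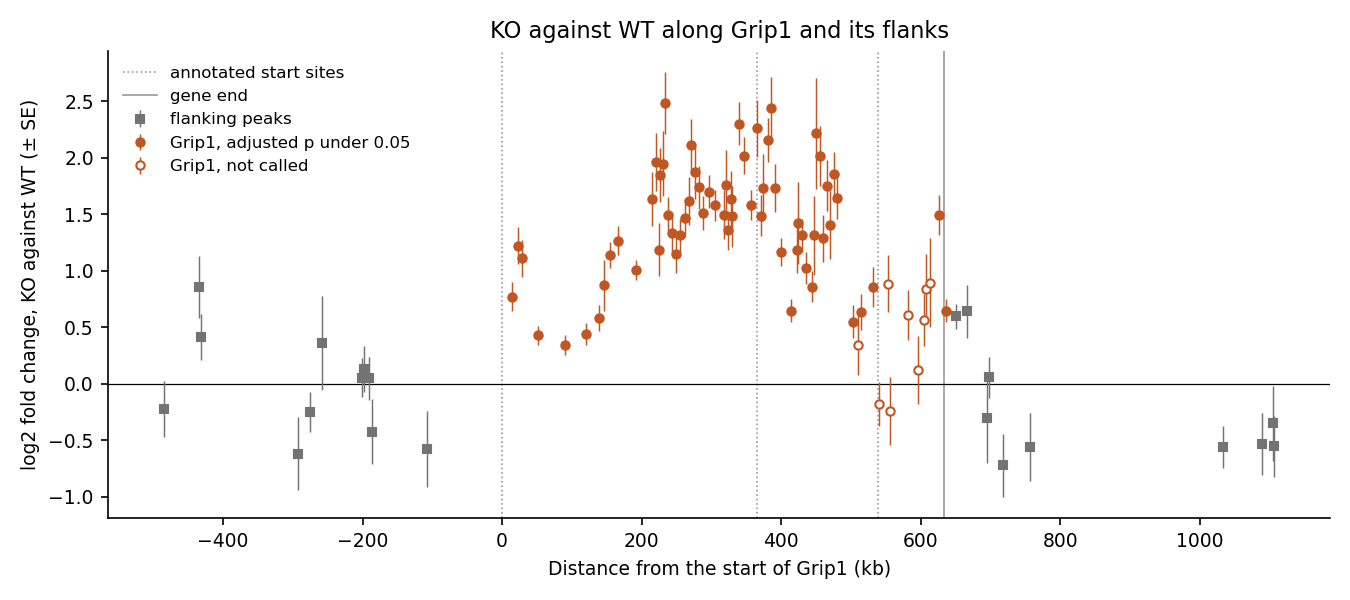
KO against WT along *Grip1* and its flanks. The x axis is the distance from the gene start in kb and the y axis the log2 fold change of each peak with its standard error from limma. Filled circles are the 63 *Grip1* peaks with an adjusted p under 0.05, open circles the 9 others and grey squares the 21 flanking peaks. Dotted lines mark the start sites and the solid line the gene end. The fold changes rise to 2.48 in the middle of the gene and the open circles gather after the third start.

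WT and KO differed in how even the mark was along most of the gene. Across peaks 1 to 59, the mean WT density went from 4.08 to 19.6 matched reads per kb, a 4.8-fold range with a coefficient of variation over peaks of 39.7%. The mean KO density went from 18.5 to 27.1 over the same peaks, a 1.47-fold range with a coefficient of variation of 8.58%. Peaks 1 to 59 are the run in which every peak passed the test. Over all 72 peaks the coefficients of variation were 41.8% in WT and 14.9% in KO. Over peaks 63 to 70 they were 17.5% in WT and 16.9% in KO, so the difference was not seen there. For comparison, the median of all peaks outside *Grip1* was 16.0 matched reads per kb in both genotypes. Peaks are called above a floor of pooled enrichment, which limits how low the KO values can be where WT is low. Across the 72 peaks, the log2 fold change and the WT enrichment over input had a Spearman's rho of -0.76. Both are computed from the WT values, so this is a description of these peaks.

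**Figure D2:**
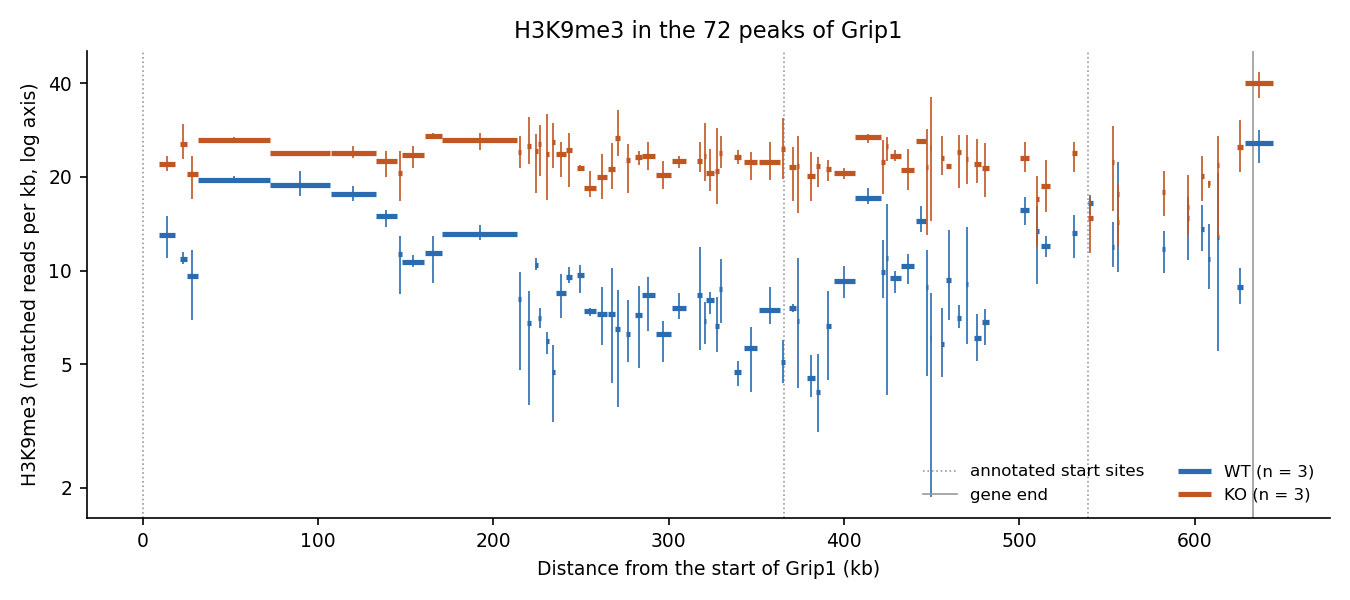
H3K9me3 in the 72 peaks of *Grip1*. The x axis is the distance from the gene start in kb and the y axis the matched reads per kb on a log axis. Horizontal bars show the mean of 3 libraries over the width of each peak, vertical lines the lowest to highest library, and dotted lines the start sites. KO bars stay between 18.5 and 27.1 over peaks 1 to 59, while WT bars lie anywhere between 4.08 and 19.6.

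The wide peaks near the 5′ end carried the mark in WT as well and changed least among the increased peaks. Peak 4 (chr10:119485201-119526600), an intronic block of 41.4 kb, had log2 values of 9.65, 9.64 and 9.71 in the WT libraries and 10.12, 10.08 and 10.08 in the KO libraries. The WT and KO values did not overlap, and the log2 fold change was 0.43 ± 0.08 (SE, adjusted p = 0.00085 by limma). Peak 5 (chr10:119526601-119560350) directly follows it and changed by 0.34 ± 0.09 (SE, adjusted p = 0.028 by limma). This was the smallest increase at *Grip1* that passed the test, and it did not pass without WT replicate 1, WT replicate 2 or KO replicate 1. Peak 6 (chr10:119560951-119586600) changed by 0.44 ± 0.09 (SE). Peaks 4, 5 and 6 all lost their calls with input subtracted and with the prior that ignores the mean level. Before these blocks, peak 1 (chr10:119462851-119472450), the most 5′ of all, had 6.97, 6.72 and 7.17 in WT and 7.72, 7.64 and 7.81 in KO. Its log2 fold change was 0.77 ± 0.13 (SE, adjusted p = 4.3e-05 by limma), a call lost with the prior that ignores the mean level.

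The widest peak, peak 11 (chr10:119624701-119667450), was 42.8 kb wide. It had 9.22, 9.07 and 9.10 in WT and 10.21, 10.16 and 10.03 in KO. The log2 fold change was 1.01 ± 0.09 (SE, adjusted p = 2.6e-12 by limma). Peak 11 lost this call with the prior that ignores the mean level. KO density was about the same in peak 11 as in peak 4, at 26.3 and 26.4 matched reads per kb. WT density was 13.1 in peak 11 and 19.6 in peak 4. Over the 10 peaks of at least 10 kb the median log2 fold change was 0.65, and over the 62 narrower peaks it was 1.47. The 276 other peaks of at least 10 kb had a median of -0.09. Across the 72 *Grip1* peaks, width and log2 fold change had a Spearman's rho of only -0.20.

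The 10 largest increases lay in the middle of the gene, from peak 13 to peak 53, and 8 of them were over no exon, the exceptions being peaks 38 and 53. This is a region where most WT peaks had fewer than 10 matched reads per kb. Peak 17 (chr10:119687101-119688900) had log2 values of 2.55, 3.19 and 3.38 in WT, which correspond to about 5, 10 and 12 reads. The KO values were 5.56, 5.75 and 5.26. The gap between the groups was several times the spread within them, and the log2 fold change was 2.48 ± 0.28 (SE, adjusted p = 3.7e-09 by limma).

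Peak 42 (chr10:119838001-119840100) lies in a *Grip1* intron and also within *Grip1os1*, a gene annotated on the opposite strand. Its WT values were 3.01, 2.67 and 3.50 and its KO values 5.28, 5.61 and 5.60. The log2 fold change was 2.44 ± 0.27 (SE). Peak 41, its neighbour in *Grip1os1*, had 4.63, 4.31 and 4.19 in WT and 6.52, 6.81 and 6.28 in KO, with a log2 fold change of 2.16 ± 0.19 (SE). Both peaks showed the same separation of the genotypes. ChIP reads carry no strand of transcription, so the mark cannot be assigned to *Grip1* or its antisense gene.

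Peak 35 (chr10:119791201-119795250) was among the most precise of the large increases. It had 4.27, 4.10 and 4.38 in WT and 6.54, 6.63 and 6.48 in KO. The log2 fold change was 2.30 ± 0.19 (SE, adjusted p = 4.4e-13 by limma). Peak 36, which follows it, went from a mean of 5.28 ± 0.384 to 7.30 ± 0.164 (SD, n = 3 each). Peaks 13, 24 and 53 had log2 fold changes of 1.96, 2.12 and 2.01, and in each of them the KO values lay above the WT values. Peak 52 (chr10:119902951-119903700), only 750 bp wide, had WT values of 2.55, 2.67 and 0.49 and KO values of 4.16, 4.76 and 3.44. It rests on few reads, and its log2 fold change was 2.22 ± 0.49 (SE, adjusted p = 0.0046 by limma). The peak did not pass the test without KO replicate 2 or with the prior that ignores the mean level.

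The start sites inside the gene differed. Peak 38 (chr10:119818051-119820150) spans the second start and its first exons. It had 3.65, 3.19 and 3.38 in WT and 5.60, 6.02 and 5.37 in KO. With a log2 fold change of 2.26 ± 0.25 (SE, adjusted p = 3.9e-09 by limma), it was the fourth largest increase of the gene. Peak 63 (chr10:119992951-119995800) covers the third start's first exon from 29 bases after the start. It had 5.42, 5.59 and 5.65 in WT and 5.49, 5.61 and 5.02 in KO. These ranges overlapped, and the log2 fold change was -0.18 ± 0.19 (SE, adjusted p = 0.81 by limma). Per kb, peak 38 held 5.09 matched reads in WT and 24.6 in KO, while peak 63 held 16.5 in WT and 14.7 in KO.

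Of the 11 peaks over an exon, 7 increased, with a median log2 fold change of 0.86, and of the 61 peaks over no exon 56 increased, with a median of 1.42. The exon peaks were mostly in the 3′ part of the gene, so exon content and position cannot be told apart. Peak 57 (chr10:119927851-119932050), over a pair of coding exons, had a log2 fold change of 1.86 ± 0.19 (SE). Peak 44 changed by 1.16 ± 0.12, peak 50 by 0.86 ± 0.14 and peak 62 by 0.86 ± 0.18 (SE each). Peaks 65, 66 and 67, over exons after the third start, had log2 fold changes of -0.24 ± 0.30, 0.61 ± 0.22 and 0.12 ± 0.30 (SE) and did not pass the test. An increase as small as that of peaks 4 to 6, whose SEs were 0.08 to 0.09, would not have been detectable with these SEs.

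At the threshold of the test, peak 51 (adjusted p = 0.035 by limma) was the last peak inside it, and peak 64 (adjusted p = 0.058) the first outside it. Peak 51 had 2.27, 3.45 and 3.61 in WT and 4.58, 4.91 and 3.77 in KO. Peak 64 had 4.43, 3.95 and 4.05 in WT and 5.45, 5.08 and 4.55 in KO. In both, every KO value was above every WT value. Peak 51 did not pass the test without WT replicate 1, KO replicate 1 or KO replicate 2, or with the prior that ignores the mean level. Peak 64 passed it without KO replicate 3, among peaks averaging 4 or more on the log2 scale, and with input subtracted. Over peaks 63 to 70 the WT density was 10.9 to 17.6 matched reads per kb and the KO density 14.4 to 22.4.

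**Figure D3:**
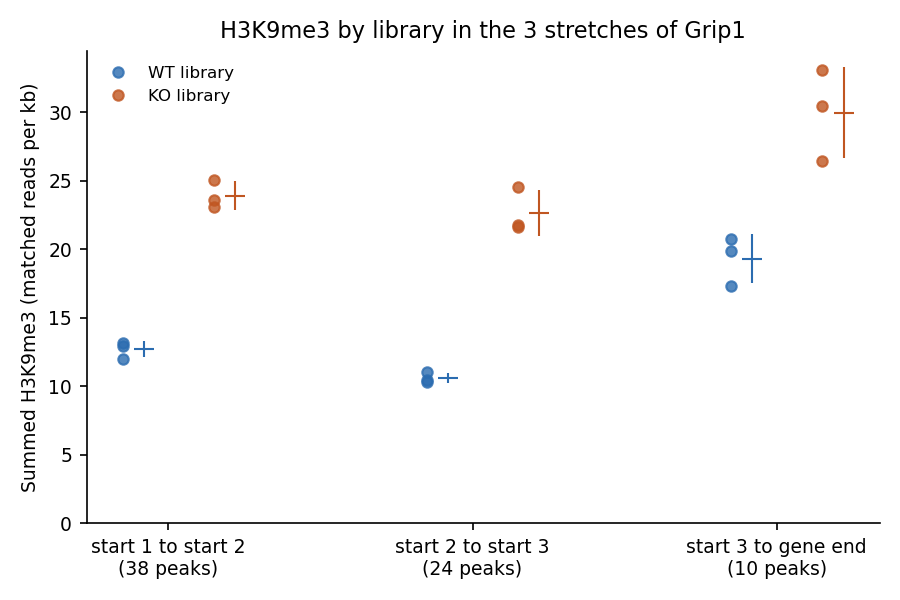
Summed H3K9me3 by library in the 3 stretches of *Grip1*. The y axis is matched reads per kb and starts at 0. Circles are single libraries, and the lines beside them are the mean ± SD of 3 libraries. In each stretch the 3 KO libraries sit above the 3 WT libraries, with means of 12.7 and 23.9 in the first stretch, 10.6 and 22.6 in the second and 19.3 and 30.0 in the third.

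By library, the first stretch had 12.9, 12.0 and 13.1 matched reads per kb in WT and 23.6, 25.1 and 23.1 in KO. The second stretch had 11.0, 10.5 and 10.3 in WT and 21.6, 24.5 and 21.8 in KO, which was the largest ratio at 2.13. The third stretch had a ratio of 1.55, and its sum was dominated by peak 72. That peak (chr10:120082351-120098700) had the highest density of all *Grip1* peaks, at 25.7 matched reads per kb in WT and 40.1 in KO. It had 8.76, 8.50 and 8.86 in WT and 9.39, 9.48 and 9.19 in KO. Its log2 fold change was 0.65 ± 0.10 (SE, adjusted p = 1.3e-05 by limma), a call lost with the prior that ignores the mean level. Without peak 72 the third stretch had 12.8 ± 0.344 in WT and 19.6 ± 2.77 in KO (SD, n = 3 each), a ratio of 1.53.

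Relative to input, WT and KO fell on opposite sides of the median peak. Enrichment was computed as the log2 ChIP value minus the log2 input value of the same genotype, and is given relative to the median over all 53761 peaks. In WT the median *Grip1* peak was at -0.88, which is the 1.96th percentile of all peaks, and 65 of 72 peaks were below 0. In KO it was at 0.51, the 80.6th percentile, and 4 of 72 peaks were below 0. Enrichment over both inputs selected the peaks, so no test is given. Among peaks of like width, 2 to 8 kb, the medians were -0.97 in WT and 0.47 in KO for 38 *Grip1* peaks, and -0.02 and -0.03 for 8354 others. The lowest WT value, -1.90, was at peak 42. The wide peaks 4, 5 and 6 stood at 0.42, 0.45 and 0.26 in WT and 0.75, 0.72 and 0.61 in KO.

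**Figure D4:**
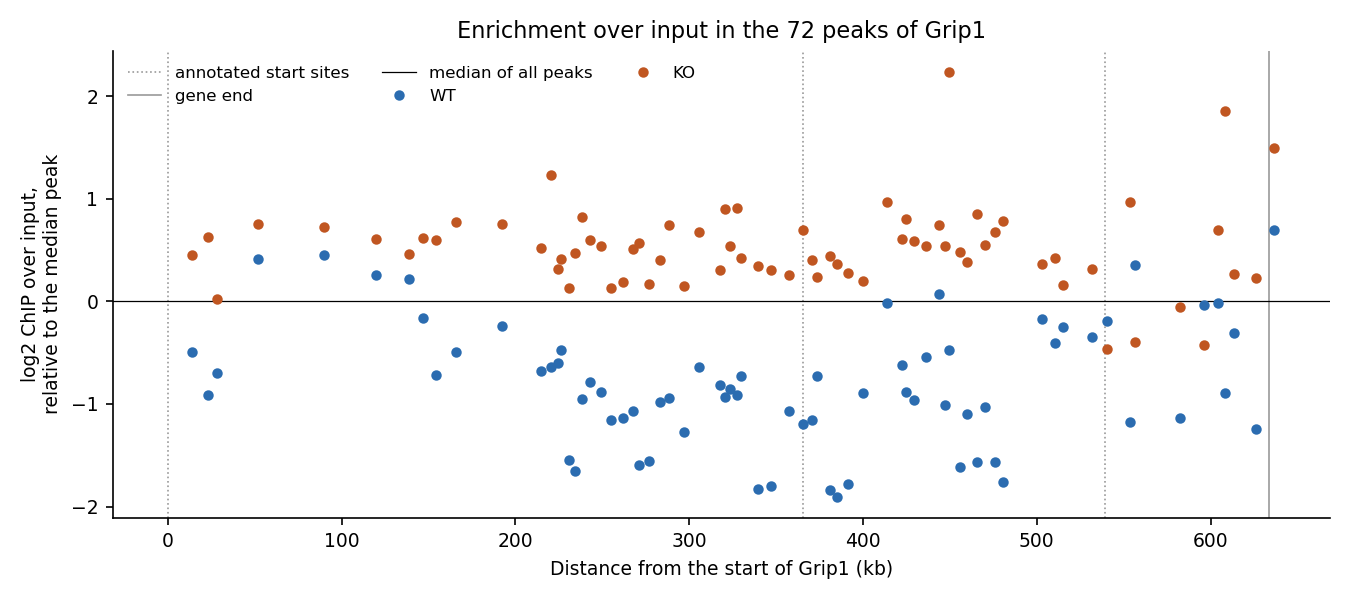
Enrichment over input in the 72 peaks of *Grip1*. The x axis is the distance from the gene start in kb and the y axis the mean log2 ChIP value minus the log2 input value of that genotype, relative to the median of all peaks (horizontal line). Points are single peaks, means of 3 ChIP libraries against 1 input library. WT points lie mostly below the line with a median of -0.88, and KO points mostly above it with a median of 0.51.

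Summed over its peaks, *Grip1* had the same input ratio of the genotypes as all peaks together. The WT input had 4003 reads over the 72 peaks, and the KO input 3773. Their ratio, KO to WT, was 0.943, and the ratio over all peaks was also 0.943. By stretch it was 0.986, 0.855 and 0.838. With 1 input per genotype these ratios have no replicate error, so a difference in input between the genotypes cannot be judged.

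The flanks of *Grip1* held few peaks to compare. Within 500 kb of either end lay 21 peaks with another gene or none. Of these, 1 increased and 0 decreased at an adjusted p under 0.05, against 0.796% and 0.863% of all peaks. At an unadjusted p under 0.05, 4 increased and 3 decreased, against 2432 and 3256 of all 53761 peaks. Upstream, the nearest peak was 108 kb before the gene start, and the 11 upstream peaks had a median log2 fold change of 0.05 and a range of -0.62 to 0.86. Downstream, the 10 peaks had a median of -0.44. The one that increased was the *Helb* peak (chr10:120098701-120110400), which begins at the base after peak 72. It had 8.00, 7.90 and 7.72 in WT and 8.41, 8.64 and 8.36 in KO, and changed by 0.60 ± 0.11 (SE, adjusted p = 0.00032 by limma), close to the 0.65 of peak 72. The next peak, 32.4 kb from the gene end, had 0.64 ± 0.24 (SE, adjusted p = 0.23). The 3 peaks of *Irak3*, a gene of innate immune signalling, had -0.30, 0.06 and -0.72, and the *Tmbim4* and *Cand1* peaks -0.56 and 0.36; none of these passed the test.

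A list of 32 genes linked to GRIP1 was also examined, made up of binding partners, subunits of the same receptor complexes and the paralog. Of these, 13 had a peak. Of their 93 peaks 0 increased and 1 decreased at an adjusted p under 0.05, shares near the 0.796% and 0.863% of all peaks. At an unadjusted p under 0.05, 2 increased and 6 decreased, against 2432 and 3256 of all 53761 peaks. The median log2 fold change was -0.03. Among receptors, *Grik2*, a kainate receptor subunit gene, had 53 peaks with a median of -0.03 and a range of -0.97 to 0.67. *Gria4* had 3 peaks, and the other AMPA receptor subunit genes had none. *Ppfia2*, which encodes a liprin scaffold, had 19 peaks with a median of -0.03. The single peaks of the kinesin genes *Kif5a* and *Kif5c* had -0.12 and 0.18, and that of *Efnb2*, an ephrin gene, had 0.28. *Fras1*, *Frem2* and *Frem3* had 4, 2 and 3 peaks with medians of -0.09, 0.26 and -0.47. *Grip2*, the paralog, had 1 peak, at -0.64. The peak that decreased was in *Matn2*, a matrix protein gene. It had 4.50, 5.28 and 5.22 in WT and 4.06, 3.94 and 4.13 in KO (log2 fold change -0.96 ± 0.25 SE, adjusted p = 0.031 by limma). This call was lost in 4 of the 6 fits that left out 1 library, those without WT replicate 2, WT replicate 3, KO replicate 1 or KO replicate 2.

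*Grip1* had the most increased peaks of any gene with at least 10 peaks, and 19 genes had more peaks in total. Of the 200 genes with at least 10 peaks, 173 had no increased peak and 13 had at least 50% of their peaks increased. *Wwox*, a tumor suppressor gene in a common fragile site, had nearly as many peaks. Of its 70 peaks 42 increased, with a median log2 fold change of 1.28, and its summed density was 8.64 matched reads per kb in WT and 22.0 in KO. *Tcf4*, a basic helix-loop-helix transcription factor gene, had 19 of 21 peaks increased, with a median of 2.08 and summed densities of 8.38 and 28.4. As at *Grip1*, enrichment over input went from below to above the median of all peaks in both genes. The median peak of *Wwox* was at -0.99 in WT and 0.47 in KO, and that of *Tcf4* at -1.51 and 0.45. The 3 genes whose mean log2 value over peaks was most like that of *Grip1* across the 6 ChIP libraries were *Tspan5* (8 of 10 peaks increased), *Cdyl2* (16 of 22) and *Tcf4*, each with a Pearson's r of 0.992. The 3 genes were picked for this r, which mainly follows the difference between KO and WT libraries that they share with *Grip1*. All these values come from the same 6 libraries, and differences between the genes were not tested.

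**Figure D5:**
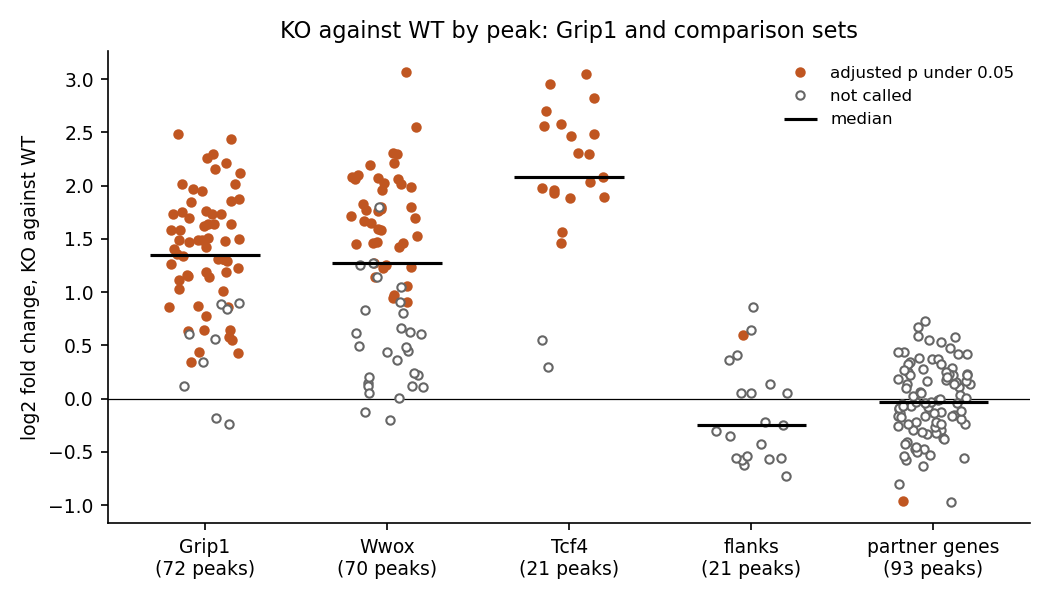
KO against WT by peak in *Grip1* and comparison sets. The y axis is the log2 fold change; each circle is a peak, filled where the adjusted p was under 0.05, and lines are medians. Circles are spread sideways only to separate them. *Grip1*, *Wwox* and *Tcf4* have medians of 1.35, 1.28 and 2.08, while the flanks and the partner genes have medians of -0.25 and -0.03.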

How the data were processed

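H3K9me3 ChIP-seq of colon crypts from 3 *Smarcad1*-KO and 3 WT libraries was analysed, with 1 input per genotype. The authors trimmed reads, mapped them to GRCm38 with Bowtie 2 (2.3.2), applied a mapping quality cutoff, discarded duplicates and, in SeqMonk, ran its MACS peak finder on the pooled ChIP libraries. The sample records give single-end and the methods paired-end reads. The ChIP columns were deposited as log2 counts of reads in each peak after matching of the 6 distributions, and the deposited input values are the log2 of unscaled counts. A deposited table of the authors' edgeR calls (p-values and fold changes) was not used. From the steps in the values, the median peak had about 14 to 20 reads, depending on the library.

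Because the table holds no raw ChIP counts, KO was compared with WT with limma (version 3.58.1, R 4.3.3), fitted to the log2 values of 53761 peaks with a variance prior that follows the mean, and Benjamini-Hochberg adjustment over all peaks. The test was tried on simulated data. No libraries had identical values. Pearson's r over peaks was 0.821 to 0.859 within and 0.800 to 0.826 between genotypes. Peaks named are the 10 largest changes among the increased, the 5 widest, the first and last, those within 1000 bp of a start or over an exon, and those nearest the threshold on either side. Partner genes are binding partners of GRIP1, subunits of the same receptor complexes and the paralog. The gene, its peaks and the lists were chosen with earlier results of these data known. Alternatives were a prior without a trend, a filter on the mean log2 value (4 or more), centred or quantile-normalized libraries, a replicate block, ChIP minus input, stricter thresholds, other peak sets, and leaving out each library. Other steps used Python 3.11.15 with scipy 1.17.1, pandas 2.3.3 and numpy 2.4.6, GENCODE vM21 and the soft-masked RefSeq GRCm38.p6 sequence.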

Additional observations from a re-analysis of the deposited data

How the results depend on the processing

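The number of increased *Grip1* peaks was 63, and 56 to 62 without 1 library; 55 peaks passed in all 6 such fits. It was 60 of the 65 peaks that averaged 4 or more on the log2 scale, 61 for ChIP minus input (56 of the 63 and 5 others), 57 at an adjusted p under 0.01, 51 at a log2 fold change of at least 1, and 63 with centred or quantile-normalized libraries. Replicate numbers are those of the labels, and deviations of same-numbered WT and KO libraries had correlations of -0.0013 to 0.019, so they do not pair the libraries; the replicate block gave 63. A prior without a trend gave 23 at *Grip1*, 112 increased and 15 decreased peaks in the whole table, and 0 in the flanks and 0 decreased at partner genes. No alternative gave a decreased *Grip1* peak. Decreased peaks in the whole table numbered 199 to 453 without 1 library, 221 at an adjusted p under 0.01 and 200 at a log2 fold change of at least 1. ChIP minus input, which treats 1 input per genotype as free of error, gave 9361 increased and 6512 decreased peaks in the whole table, 13 and 18 at partner genes, and 3 decreased in the flanks. The decreased *Matn2* peak was lost in 4 fits without 1 library (range 0 to 1) and under both stricter thresholds (0 each). Flanks of 1000 kb held 2 increased peaks. The log2 ratio of summed H3K9me3 was 0.92, 0.88 to 0.95 without 1 library, 0.94 without peak 72 (chosen after seeing the data), 1.01 relative to summed input, and 1.30 as a mean of log2 values, in which narrow peaks count as much as wide ones. WT enrichment over input was -0.40 from sums and -0.88 as a median over peaks. Among 26 named peaks the fold change of peak 67 was -0.094 to 0.258 without 1 library, negative without WT replicate 3 (-0.094) or KO replicate 2 (-0.066), and -0.30 for ChIP minus input. Of the other values, 280 kept their call, 22 lost it and 4 gained it. Where not stated, the cause was not tested. Depth limits narrow peaks most, with as few as about 2 reads in a WT library.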
